A study of Mus musculus with 6 samples.

Results

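The clustered protocadherins are neuronal adhesion proteins encoded side by side in the alpha, beta and gamma clusters of mouse chromosome 18. They were compared here between cortex RNA of newborn wild-type mice and of littermates with a Tle4-/- null mutation. Members were the rows of the deposited gene table whose symbol is that of an alpha, beta or gamma protocadherin, which gave 55 of 23621 rows. There were 14 alpha, 19 beta and 22 gamma members. Each genotype had 3 libraries of cortex from postnatal day 0, and every animal was of a mixed background of C57BL/6J, 129S6 and CD1. Tle4 encodes a Groucho-family co-repressor, and the series concerns how projection neurons of the developing cortex take on their identities. The labels call all animals littermates but do not tie libraries to litters or say whether a library pools animals, so p-values measure the spread between these samples.

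Each variable exon of the alpha and gamma clusters has its own promoter and is spliced to constant exons that all members of its cluster share. The beta genes have no such constant exons. A neuron chooses a small set of the alternate promoters, largely by chance, with CTCF and cohesin looping the chosen promoter to distant enhancers. The C-type members at the end of the alpha and gamma clusters are instead used more broadly. On the cell surface the proteins pair and bind only matching partners, which lets branches of a neuron recognise and avoid each other, and the gamma proteins also support neuron survival.

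On GRCm38 the alpha members lay on chromosome 18 from 36930184 to 37187661, the beta members from 37264938 to 37524479 and the gamma members from 37661793 to 37841873, all on the plus strand. In the GENCODE M21 annotation every alpha member shared 2860 to 2864 exonic bases with other members, and every gamma member shared 2116 to 3157. No beta member shared an exonic base with another member. How the authors assigned reads of the shared exons is not given in the sources used here. In wild-type replicate 1, Pcdha8 had 7 counts and Pcdhac2 1252. In wild-type replicate 3, Pcdhgb8 had 5 counts and Pcdhgc3 7288. In those libraries, at most 7 reads could thus have been counted in every alpha row, and at most 5 in every gamma row. Whether counts of some alpha rows, or of some gamma rows, hold the same reads is not known. The symbols Pcdha11 and Pcdhga8 each stand on 2 rows. By gene ID, ENSMUSG00000023036 is Pcdhgc4. The row ENSMUSG00000007440 starts at 37005203, where RefSeq on GRCm38.p6 places Pcdha10, and is called Pcdha10 here.

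The libraries held 18617408 to 21632607 counts, of which the members took 0.147% to 0.162%. Tle4 stood at 198, 142 and 166 CPM (counts scaled to library size with TMM factors) in the wild-type libraries and at 69.3, 86.8 and 86.8 CPM in the mutants. Its log2 fold change, mutant over wild type, was -1.06 with an SE of 0.14, and edgeR gave an adjusted p of 0.0377. Markers of cortical glutamatergic neurons such as Neurod2, Neurod6 and Tbr1 were present in all libraries at 10444 to 14999, 8857 to 12749 and 7010 to 8064 counts. Xist had 11 to 37 counts in the wild types and 66194 to 79080 in the mutants. Ddx3y, a gene of the Y chromosome, was high only in wild-type replicates 1 and 2, at 1463 and 1891 counts, and reached at most 2 in any of the other 4 libraries. Wild-type replicate 3 thus had almost no RNA of either gene. Since all mutants and no wild types had high Xist, differences tied to Xist expression and to genotype cannot be told apart here. The 6 meningeal markers summed to 31.5 CPM in wild-type replicate 1 and reached 652 CPM in another wild type, against 255 to 513 CPM in the mutants. In bulk tissue, fewer cells of a type and less RNA per cell cannot be told apart.

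Most of the 55 members were detected at birth, over a wide range of levels; 3 further beta genes of GENCODE M21 were not analysed here. Averaged over the 6 libraries, 48 of the 55 members had at least 1 FPKM, the deposited level scaled for transcript length and library depth. These were 12 of 14 alpha, 15 of 19 beta and 21 of 22 gamma members. The medians were 2.79 FPKM for alpha, 1.90 for beta and 4.82 for gamma, beside 3.98 over all genes tested. Pcdhgc3, a C-type gamma member, was highest at 38.2 FPKM, followed by the C-type alpha member Pcdhac2 at 16.2 FPKM and by Pcdhga11 at 12.5 FPKM. Pcdhb1 was lowest at 0.0544 FPKM, after Pcdha8 at 0.193, Pcdhgb8 at 0.418 and Pcdha1 at 0.466 FPKM.

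FPKM depends on the length given to each gene. For 33 members GENCODE M21 lists 1 transcript, so that its summed transcripts and merged exons are the same. Of the 22 members with several transcripts, the length that count and FPKM imply equalled the sum of all transcripts within 1 base in 13 and did not in 9. In 21 members it exceeded the merged exons, by up to 2.60 times. Per kilobase of merged exons, Pcdhgc3 stood at 66.3 CPM, Pcdhac2 at 16.2 CPM, Pcdhgc4 at 12.9 CPM and Pcdhga11 at 12.5 CPM. Pcdhgc4 thus took rank 3 by merged exons and rank 5 by FPKM. The length is the same in every library, so it leaves comparisons between genotypes as they are.

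**Figure D1:**
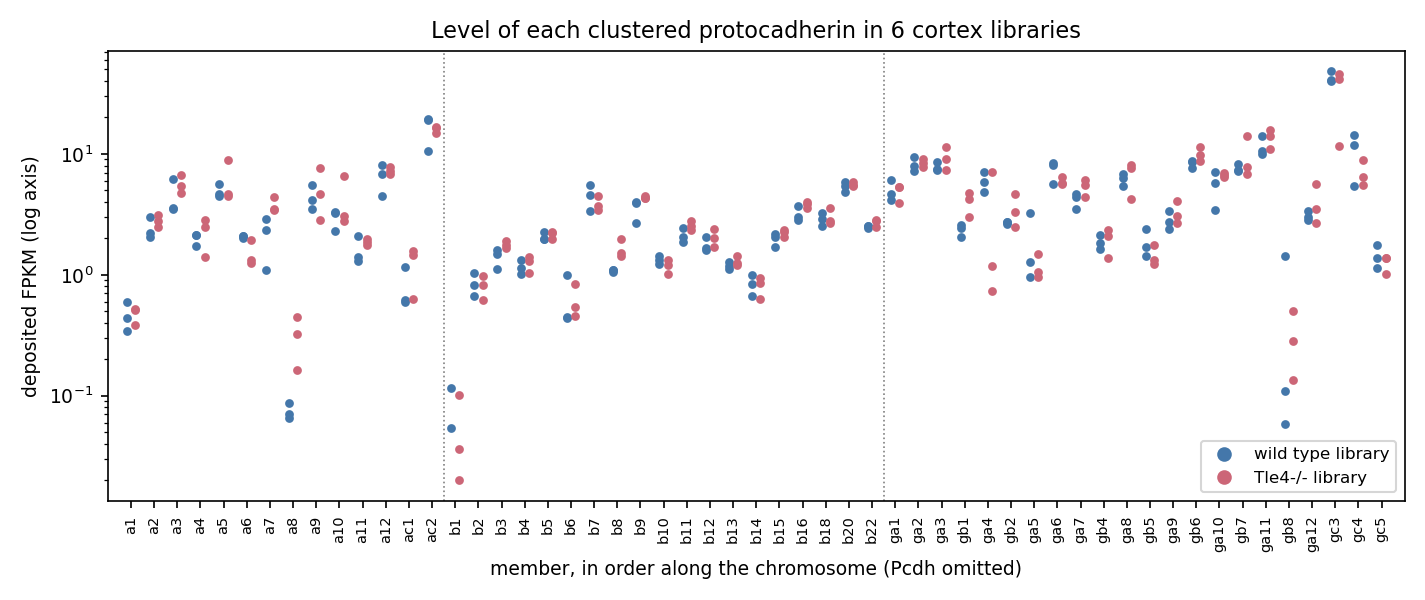
Deposited FPKM of each member in each library on a log axis, with members in their order along the chromosome and dotted lines between the alpha, beta and gamma clusters. Points are libraries, blue for wild type and red for Tle4-/-, and values of 0 are not drawn. Pcdhgc3 and Pcdhac2 stand highest, and Pcdhb1, Pcdha8 and Pcdhgb8 lowest.

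As whole clusters, only the beta members separated the genotypes, with slightly higher sums in the mutant, while the alpha and gamma sums overlapped. The summed beta level was 165.5, 161 and 156 CPM in the wild-type libraries and 181, 173 and 176 CPM in the mutants. All 3 mutants lay above all 3 wild types, and the ratio of means was 1.10 (161 ± 4.92 against 176.5 ± 4.29 CPM, SD, n = 3 each). The 6 pan-neuronal markers separated the genotypes in the same direction, with sums of 4818 to 5639 CPM in the wild types and 5692 to 5935 CPM in the mutants. Of these 6, 5 had a log2 fold change above 0, and Stmn2 was higher without overlap, at 1215 to 1490 CPM against 1572 to 1624 CPM. Their part in the beta sums was not tested. The summed alpha level was 298, 375 and 358 CPM in the wild types and 400, 369 and 394 CPM in the mutants. These overlapped, with a ratio of 1.13, and wild-type replicate 1 was the lowest library. Without the C-type members the summed alpha level was 228 to 261 CPM in the wild types and 272 to 299 CPM in the mutants, which did not overlap. The summed gamma level was 1191, 968 and 983 CPM in the wild types and 945, 1074 and 914 CPM in the mutants, with a ratio of 0.934 and overlapping genotypes. No p-value is given for these sums, because the members were chosen with earlier results of these data known.

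**Figure D2:**
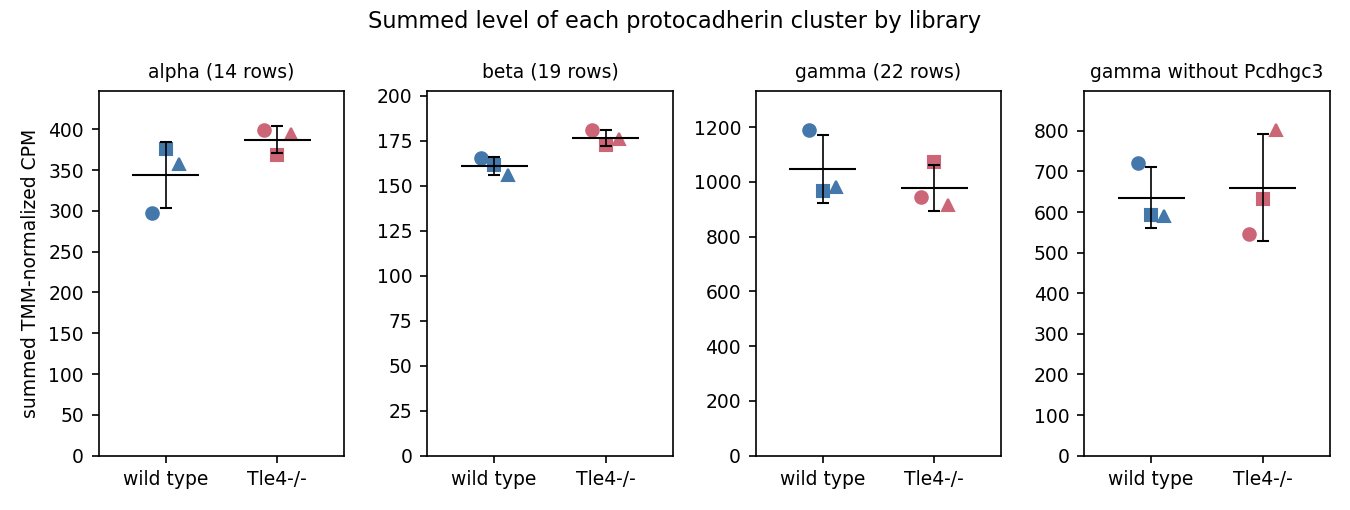
Summed TMM-normalized CPM of the alpha, beta and gamma members in each library, and of the gamma members without Pcdhgc3. Each y axis starts at 0 and differs between panels; points are libraries (circle, square and triangle for replicates 1, 2 and 3), horizontal lines are means and bars are SD over 3 libraries. The beta panel shows all 3 mutants, at 173 to 181 CPM, above the wild types, at 156 to 165.5 CPM, while the genotypes overlap in the other panels.

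Gene by gene, no clustered protocadherin passed the threshold. Of the 55 members 54 had enough counts to be tested, 52 of them in both genotypes and 2, Pcdha8 and Pcdhgb8, through the mutant libraries. By edgeR's quasi-likelihood test, adjusted over 16274 genes with a threshold of 0.05, 0 members were called, beside 0.111% of all genes (0.0492% higher and 0.0614% lower). Every member other than Pcdha8 and Pcdhgb1 had an adjusted p of 0.9996 by edgeR. The DESeq2 Wald test called 1, Pcdhgb1, and limma-voom 0. At an unadjusted p under 0.05 there were 5 members higher in the mutant, or 9.26% of those tested beside 1.71% of all genes, and 1 lower, or 1.85% beside 1.73% (3.45% of all genes in either direction). The genotypes did not overlap in 7 members that were higher in the mutant (13.0% beside 4.18% of all genes) and in 1 that was lower (1.85% beside 3.75%), where 7.93% of all genes did so in either direction.

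Most members had a log2 fold change above 0. There were 38 of 54 (70.4%, beside 48.7% of all genes), made up of 12 of 14 alpha, 13 of 18 beta and 13 of 22 gamma members. The median log2 fold change was 0.23 for alpha, 0.12 for beta and 0.09 for gamma, against -0.01 over all genes tested. Within the gamma cluster the median was 0.17 for the 12 gamma-A and 0.27 for the 7 gamma-B members, and over the 5 C-type members of both clusters it was -0.18. The gamma median was -0.014 without mutant replicate 3 and 0.31 without mutant replicate 1, and the alpha median was 0.39 without wild-type replicate 2. Rows of a cluster that share exons may move together, so these counts are a description and not a count of independent genes.

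**Figure D3:**
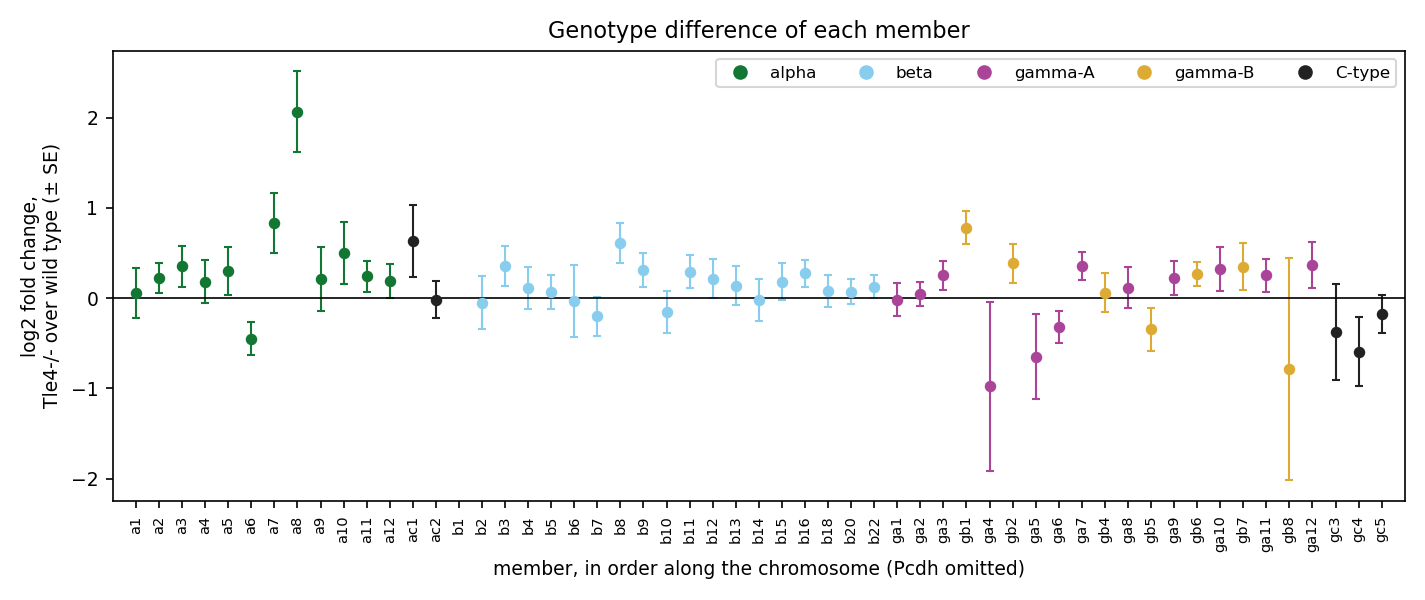
Log2 fold change of each tested member, Tle4-/- over wild type, in order along the chromosome, from edgeR; bars are SE and colours give the subtype. Pcdha8, at 2.07, is farthest above 0 and Pcdhga4, at -0.98, farthest below it with a wide SE, and the beta members all lie between -0.20 and 0.61.

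Among the alternate alpha members, Pcdha8 had the largest log2 fold change and the lowest FPKM. Wild-type counts were 7, 10 and 7, and mutant counts 37, 46 and 17. The mutants were all above the wild types, at 0.886 to 2.41 CPM against 0.356 to 0.449 CPM. The log2 fold change was 2.07 (SE 0.45), with an adjusted p of 0.363 by edgeR. In the authors' deposited table Pcdha8 alone among the 55 members had an adjusted p below 0.05, at 0.0278, a level that 0.288% of all rows reached. It was tested only because its mutant counts passed the filter on low counts. Its adjusted p ranged from 0.163 to 0.9997 over the 14 alternative settings, and its log2 fold change from 1.18 to 2.37.

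Its upstream neighbours Pcdha7 and Pcdha6 went in opposite directions. Pcdha7 stood at 15.9, 5.70 and 12.6 CPM in the wild types and 18.8, 18.4 and 23.6 CPM in the mutants (log2 fold change 0.83, SE 0.34). The genotypes did not overlap, and wild-type replicate 2 was well below the other libraries. Pcdha6 was the 1 member lower in the mutant without overlap. It stood at 30.0, 28.1 and 28.1 CPM in the wild types and 17.4, 18.5 and 27.3 CPM in the mutants, so that mutant replicate 3 lay just under the wild types (log2 fold change -0.45, SE 0.18).

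The alternate alpha members with the highest FPKM did not separate the genotypes. Pcdha12, the last of them before the C-type exons, had 6.43 ± 1.77 FPKM in the wild types and 7.26 ± 0.439 FPKM in the mutants (SD, n = 3 each). Pcdha5 was high in mutant replicate 1 alone, at 46.2 CPM against 23.2 to 28.2 CPM in the other 5 libraries. Pcdha10, named after its values were seen, had its highest value in the same library, with 753 counts against 229 to 376 in the other 5. Pcdha3 had 3.52 to 6.22 FPKM in the wild types and 4.72 to 6.69 FPKM in the mutants. Pcdha1, at the start of the cluster, had 3.32 to 6.06 CPM in the wild types and 3.86 to 5.29 CPM in the mutants.

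**Figure D4:**
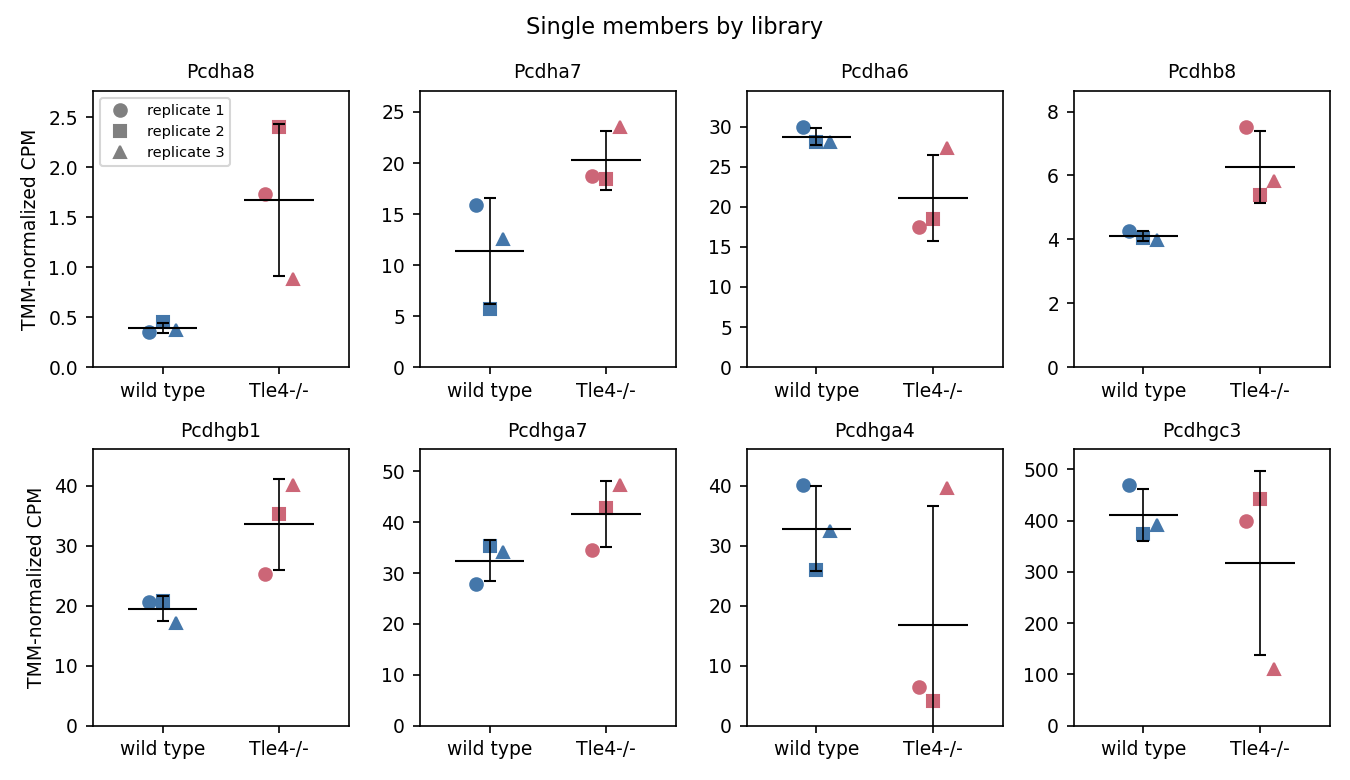
TMM-normalized CPM of 8 members in each library; y axes start at 0 and differ between panels, points are libraries (circle, square and triangle for replicates 1, 2 and 3), horizontal lines are means and bars are SD over 3 libraries, cut at 0 for Pcdhga4. The genotypes do not overlap for Pcdha8, Pcdha7, Pcdha6, Pcdhb8 and Pcdhgb1, while for Pcdhga4 and Pcdhgc3 mutant replicate 3 lies far from the other 2 mutants.

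The beta members, each with its own gene body, differed least between libraries. Pcdhb8 had the smallest p of the cluster. It stood at 4.28, 4.04 and 3.98 CPM in the wild types and at 7.53, 5.39 and 5.84 CPM in the mutants, all above the wild types (log2 fold change 0.61, SE 0.22). Pcdhb16 was also higher without overlap, at 15.1 to 18.8 CPM in the wild types and 18.9 to 20.9 CPM in the mutants (log2 fold change 0.28, SE 0.15). So was Pcdhb9, at 8.40, 11.7 and 12.3 CPM against 13.2, 13.8 and 13.2 CPM. In all, 4 of 18 beta members (22.2%, beside 4.18% of all genes) were higher in the mutant without overlap, and 0 were lower (beside 3.75%).

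In the other beta members named here the genotypes overlapped. Pcdhb20, the highest of the cluster, had 5.39 FPKM in the wild types and 5.62 FPKM in the mutants on average (SD 0.502 and 0.254, n = 3 each). Pcdhb7 had its highest value in wild-type replicate 1, at 19.8 CPM, and lay between 11.7 and 15.7 CPM in the other libraries. Pcdhb6 was high in the same library, at 4.48 CPM against 1.93 to 3.75 CPM elsewhere. For Pcdhb1, the first beta gene, wild-type counts were 6, 3 and 0 and mutant counts 2, 5 and 1. It was not tested, and a count of 0 allows up to 3 counts.

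Of the alternate gamma members, Pcdhgb1 had the smallest p. It stood at 20.7, 20.9 and 17.1 CPM in the wild types and at 25.4, 35.3 and 40.1 CPM in the mutants. All mutants were above all wild types, by 1.72-fold (log2 fold change 0.78, SE 0.18, edgeR adjusted p = 0.515). By the DESeq2 Wald test its adjusted p was 0.0345, and the 13 other alternatives gave 0.123 to 1. Without mutant replicate 3 its log2 fold change was 0.63, and without mutant replicate 1 it was 0.95.

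Mutant replicate 3 held the highest value of many gamma members. This was so for 10 of the 22 gamma members, while wild-type replicate 1 held the highest value of 8 and the other 4 libraries that of 0 to 3 each. Pcdhgb7 stood at 67.3 CPM there and at 32.4 to 37.6 CPM in the other 5 libraries. Pcdhgb6, the gamma-B member with the highest FPKM, reached 54.2 CPM there and 36.0 to 45.9 CPM elsewhere, Pcdhgb2 35.0 CPM against at most 24.3 CPM, and Pcdhga9 32.1 CPM against 18.7 to 25.5 CPM. Pcdhga3 stood at 54.1 CPM there and 34.2 to 42.6 CPM elsewhere. Pcdhga7 had 27.8, 35.3 and 34.1 CPM in the wild types and 34.5, 42.9 and 47.3 CPM in the mutants (log2 fold change 0.36, SE 0.15), with overlapping genotypes. Ttr, a choroid plexus marker, reached 1789 counts in that same mutant library against 1 to 5 elsewhere. Of the other choroid plexus markers listed, Folr1 was also highest there, at 25 counts against 0 to 2. Kcnj13 was instead highest in mutant replicate 2, at 24 counts against 6 in mutant replicate 3. Aqp1 was highest in wild-type replicate 2, at 105 counts against 80 in mutant replicate 3. The part of these markers in the gamma levels was not tested.

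Pcdhga4, named after its values were seen, split the mutants. Wild-type counts were 787, 579 and 604, and mutant counts 139, 77 and, in replicate 3, 760. The log2 fold change was -0.98 (SE 0.94). Without mutant replicate 3 it was -2.64, with an edgeR adjusted p of 0.0196, the only call that leaving out a library produced among the members. Pcdhga5 and Pcdhgb8 also had log2 fold changes below 0, at -0.65 (SE 0.47) and -0.79 (SE 1.23), and were high in wild-type replicate 1. Without that library their log2 fold changes were 0.09 and 1.87. Pcdhga5 had 303 counts there and 86 to 133 in the other libraries, and Pcdhgb8, which RefSeq lists as a transcribed pseudogene, had 131 counts there and 5 to 45 elsewhere. That library also had the lowest sum of meningeal markers, whose part was not tested.

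Pcdhga11, the gamma-A member with the highest FPKM, had 67.6, 48.3 and 47.1 CPM in the wild types and 52.0, 74.5 and 67.7 CPM in the mutants. Pcdhga2 had 32.7 to 44.0 CPM in the wild types and 36.8 to 42.2 CPM in the mutants. Pcdhga6 had 25.7 to 40.9 CPM against 26.5 to 30.6 CPM (log2 fold change -0.32, SE 0.18), and Pcdhgb5 12.9 to 22.6 CPM against 11.5 to 16.4 CPM. In each of these 4 members the genotypes overlapped.

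The C-type members Pcdhgc3 and Pcdhac2 took the largest share of their cluster's counts, and the genotypes overlapped in all 5 C-type members. For Pcdhgc3 the wild-type counts were 9213, 8335 and 7288 and the mutant counts 8538, 8432 and 2135. It took 38.7% to 42.3% of all gamma counts in 5 libraries. In mutant replicate 3 it took 12.2% (95% exact Clopper-Pearson interval 11.7% to 12.7%, which covers counting error only). The gamma members other than Pcdhgc3 summed to 803 CPM in that library and to 545 to 721 CPM in the other 5. Without Pcdhgc3 the ratio of summed gamma levels was 1.04 in place of 0.934, a setting added after seeing the data. The log2 fold change of Pcdhgc3 was -0.38 (SE 0.53) with all libraries and 0.03 without mutant replicate 3.

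Pcdhgc4, a C-type member needed for the survival of cortical interneurons, had 120, 95.7 and 45.2 CPM in the wild types and 53.3, 45.8 and 74.2 CPM in the mutants. Wild-type replicates 1 and 2 stood above all other libraries, and wild-type replicate 3 was the lowest (log2 fold change -0.59, SE 0.38). The interneuron markers summed to 469 to 518 CPM in the wild types and 429 to 479 CPM in the mutants. Of these 6 markers, 5 had a log2 fold change below 0. The part of these markers in the Pcdhgc4 level was not tested. Pcdhgc5 stood at 20.1, 14.8 and 12.8 CPM in the wild types and 11.4, 15.3 and 15.5 CPM in the mutants.

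Pcdhac2, which serotonergic axons need to spread through the forebrain, had 63.8, 111 and 113 CPM in the wild types and 97.1, 88.2 and 99.0 CPM in the mutants (log2 fold change -0.02, SE 0.20). The mutants lay within the wild-type range, and wild-type replicate 1 was lowest. It took 21.4% to 31.7% of all alpha counts. The serotonergic markers Tph2 and Slc6a4 together had 0.591 to 2.29 CPM in the wild types and 2.56 to 3.23 CPM in the mutants. Tph2 overlapped, with 4 to 15 counts in the wild types and 7 to 14 in the mutants. Slc6a4 did not overlap, at 0.376 to 1.62 CPM in the wild types and 1.825 to 2.76 CPM in the mutants. Its counts were low, from 7 to 59. The part of these markers in the Pcdhac2 level was not tested. Pcdhac1 was far lower, at 6.37, 3.23 and 3.23 CPM in the wild types and 3.46, 8.53 and 7.98 CPM in the mutants (log2 fold change 0.64, SE 0.40).

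Alpha and gamma members varied more between libraries than beta members. The highest library over the lowest had a median of 1.95 for alpha, 1.45 for beta and 1.90 for gamma. Genes within the same range of mean CPM had medians of 1.51, 1.61 and 1.42. A ratio over 2 was found in 6 of 14 alpha, 1 of 18 beta and 9 of 22 gamma members, or 42.9%, 5.56% and 40.9%, where genes of the same ranges gave 22.6%, 24.3% and 15.1%. Over all genes within the range of all members the share was 19.5%. Within a genotype the median coefficient of variation was 25.2% for alpha, 13.4% for beta and 22.1% for gamma. The ratio was highest for Pcdhgb8, at 24.8, and Pcdhga4, at 9.95. The part of the shared exons in this spread was not tested.

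**Figure D5:**
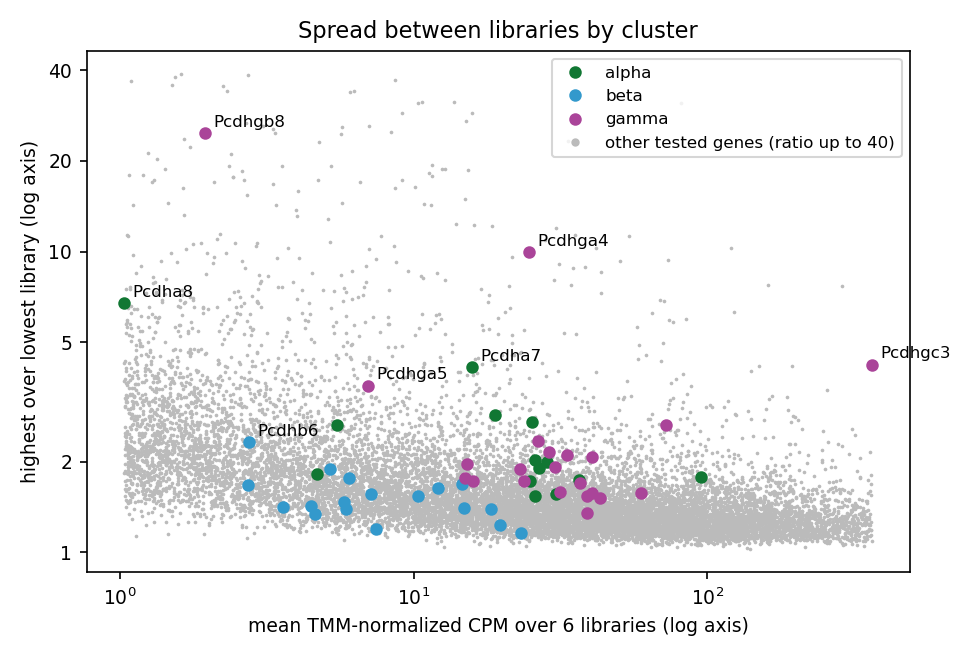
Highest over lowest library against the mean TMM-normalized CPM, both on log axes, for each tested member (green alpha, blue beta, purple gamma) and for the other tested genes of the same range (grey, ratios up to 40). Beta members lie low in the cloud, with only Pcdhb6 above 2, while Pcdhgb8, Pcdhga4, Pcdha8 and Pcdhgc3 stand above most genes of their level.

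Besides the members, 71 genes were listed as regulators of the clusters, as partners of the proteins or as neighbours by position. Of these 63 had enough counts, and 0 were called by edgeR, by DESeq2 or by limma-voom. At an unadjusted p under 0.05 there were 2 of 63 higher, where 1.71% of all genes were, and 0 lower, where 1.73% were. Ctcf, whose protein anchors the promoter loops, had 136 ± 16.2 CPM in the wild types and 131 ± 6.58 CPM in the mutants (SD, n = 3 each; log2 fold change -0.05, SE 0.11). Rad21, a cohesin subunit, gave -0.08 (SE 0.09). Of the 11 CTCF and cohesin genes, 9 had a log2 fold change below 0, with a median of -0.07. The smallest p belonged to the cohesin loader gene Mau2 (-0.15) and to Stag1 (-0.22).

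Smchd1, which keeps the clusters silenced, had 103 ± 5.27 CPM in the wild types and 98.9 ± 5.72 CPM in the mutants (SD, n = 3 each). The DNA methyltransferase gene Dnmt3b, which methylates their promoters, had 4.10 ± 0.290 CPM against 4.09 ± 0.384 CPM. Of the 15 silencing genes 10 had a log2 fold change below 0, the smallest p belonging to Dnmt3a (-0.31, SE 0.14) and Trim28 (-0.13).

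Among 20 signalling partners, 7 had a log2 fold change above 0 and 13 below. Ptk2b, the kinase Pyk2 that clustered protocadherins inhibit, stood at 76.2, 70.3 and 59.0 CPM in the wild types and at 114, 96.6 and 79.0 CPM in the mutants, without overlap (log2 fold change 0.49, SE 0.15). Nlgn1, a neuroligin, gave 0.22 (SE 0.13). Nlgn2, a neuroligin of inhibitory synapses named after its values were seen, had 201 CPM in mutant replicate 3 and 434 to 494 CPM in the other libraries, the same library in which Pcdhgc3 was low. The 9 genes of the WAVE actin-regulating complex had a median of -0.0022, with Nckap1 at 0.09 and Wasf1 at -0.11.

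Of 16 other rows that overlap the stretch from the first to the last member, 8 were tested. Taf7, a subunit of the general transcription machinery that lies between the beta and gamma clusters, had 17.3 ± 2.09 CPM in the wild types and 17.1 ± 1.56 CPM in the mutants (SD, n = 3 each). BC037039, annotated antisense across the start of Pcdhgc3, had 4.79, 5.34 and 4.73 CPM in the wild types and 9.12, 4.81 and 8.45 CPM in the mutants (log2 fold change 0.59, SE 0.26). Whether counting used strand is not known here, so reads of BC037039 and Pcdhgc3 cannot be told apart where they overlap. Gm37446, annotated antisense to Pcdhb12, had wild-type counts of 17 to 20 and mutant counts of 23 to 26, without overlap (log2 fold change 0.41, SE 0.31).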

How the data were processed

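Per the labels' protocols, cortex was dissected in cold buffer and frozen, and total RNA was extracted on columns with DNase treatment. HISAT2 2.0.4, StringTie, edgeR, mm10 and GRCm38.p4 appear, without their roles, in the submitters' processing notes. No source used here states the counting program, the annotation release or the strand setting. The authors deposited 1 table with whole-number counts per gene. Beside them stand the authors' FPKM values per library and per group, and the p-values and adjusted p-values of the authors' comparison.

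Counts were fitted across all genes in edgeR 4.0.16 (R 4.3.3) after filterByExpr and TMM scaling, by a robust, 2-sided quasi-likelihood test. P-values were adjusted by Benjamini-Hochberg, and adjusted values under 0.05 were called. The size of a log2 fold change divided by the root of its F statistic gave the SE. On simulated counts for 16274 genes with 200 changed, 170 were called, 6 falsely, recovering 67% of 2-fold and 97% of 4-fold changes. Changes were placed only in genes above a floor of mean counts, with the spread typical of a gene's level. Within a genotype the median coefficient of variation was 25.2% for alpha and 22.1% for gamma members. Genes of the same ranges had 15.3% and 13.1%, so these recovery rates need not hold for alpha and gamma members. Each library held 18617408 to 21632607 counts. Exon lengths came from GENCODE M21, whose coordinates equalled the table's for all 55 members.

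Members and lists were chosen with earlier results of these data known. Named members were the 5 C-type members, any past the threshold, and in the alpha, beta, gamma-A and gamma-B groups the 3 highest and 2 lowest by mean FPKM and the 3 with the smallest p. Of the listed regulators, partners and neighbours, Ctcf, Rad21, Smchd1, Dnmt3b, Tle4 and the 2 with the smallest p per list were named. Alternatives were DESeq2 1.42.0 size factors and Wald test, limma-voom (limma 3.58.1), limma on log2(FPKM + 0.1), other filters, no X or Y genes, a replicate block and each library left out.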

Additional observations from a re-analysis of the deposited data

How the results depend on the processing

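With 1 library left out, the number of members past the edgeR threshold was 0 or 1. The 1 was Pcdhga4 without mutant replicate 3, and the 1 member called by the DESeq2 Wald test was Pcdhgb1. With 1 library left out, members whose genotypes did not overlap numbered 11 to 17 in place of 8, where fewer libraries overlap less often by construction. The median log2 fold change then ranged from 0.21 to 0.39 for alpha, 0.11 to 0.17 for beta and -0.014 to 0.31 for gamma. The ratio of summed levels ranged from 1.06 to 1.18 for alpha, 1.08 to 1.11 for beta and 0.888 to 1.002 for gamma. Without Pcdhgc3 the gamma ratio was 1.04, above 1. Over the other settings the medians were 0.21 to 0.24, 0.10 to 0.12 and 0.05 to 0.13, and 0 of the listed regulators, partners and neighbours were called in any setting. Level ratios and overlap were not recomputed for the settings that change only the test. With a replicate block 0 members passed the threshold, and the medians were 0.23, 0.12 and 0.06. The replicate numbers are not stated to mark litters. Deviations of same-numbered libraries from their genotype mean correlated at -0.08, 0.11 and -0.024. With 3 libraries per genotype, these values cannot settle whether same-numbered libraries were paired. Counts of 7 to 46 limit the precision for Pcdha8, and a member at 0 to 6 counts could not be tested.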
